A study of Oryzias latipes with 6 samples.

Results

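Cells display fragments of their proteins on MHC molecules, the surface proteins that T cells read. Class I molecules are made of a heavy chain and the light chain beta-2-microglobulin. They carry peptides that the proteasome cuts in the cytosol, in immune cells with immunoproteasome subunits in place of standard ones. The peptides are pumped into the endoplasmic reticulum by the TAP transporter and loaded with the help of tapasin. Class II molecules, an alpha and a beta chain held by the invariant chain until loading, carry peptides from the endosomes of antigen-presenting cells such as macrophages, dendritic cells and B cells. In medaka and other bony fish some of the class I genes and several immunoproteasome and transport genes lie together in one cluster. Other class I genes lie elsewhere, and class II genes lie on other chromosomes. Class I heavy chain genes are among the most variable genes of vertebrates, and they have close copies.

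The genes of this machinery were taken from the deposited medaka (Oryzias latipes) testis table by symbol (the orla-, psmb8, psmb9, psmb10, psmb11 to psmb13, tap1, tap2, tapbp, b2m, cd74, ciita and mhc names) or by a description that names a histocompatibility antigen, an MHC class or beta-2-microglobulin. The search found 34 of 24365 genes, 20 by symbol and 14 by description alone. They comprise 9 class I heavy chains, 2 genes described as beta-2-microglobulin, 4 immunoproteasome subunits, 3 TAP genes, 2 tapasin genes, 9 class II chains, 4 genes of the invariant chain and of regulators, and hm13. A further 7 genes would have entered if the letter case of the description had been ignored. Levels are given in FPKM, which corrects for gene length and sequencing depth, so they can be compared between genes. Of the 34 genes, 26 averaged 1 FPKM or more in mutant or wild type and were tested. The other 8, which had 4 to 203 reads each over all 6 libraries, were not tested.

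RNA was sequenced from testes of fish with both copies of nphp4 mutated (nphp4-/-, 3 libraries) and of wild-type fish (WT, 3 libraries), with testes of 2 fish pooled for every library. nphp4 encodes nephrocystin-4, a protein at the base of cilia, and the study asks which testis genes differ between mutant and wild type. The strain, the age, the kinship of the 2 groups and the lesion in nphp4 are not given in the sources used here. In a pooled tissue such as this one, fewer cells of a type and less RNA per cell cannot be told apart.

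Gene-assigned reads numbered 13438879 to 16054354 per mutant library and 14691441 to 16004325 per wild-type library. nphp4 itself was at 6.84, 7.00 and 10.9 FPKM in mutant 1, 2 and 3, against 17.1, 23.5 and 12.2 FPKM in wild type 1, 2 and 3, with every mutant library lower (adjusted p = 0.436, limma). Germ cell genes (dazl at 265 to 352 and 288 to 356 FPKM) and the somatic testis gene gsdf (746 to 1078 and 910 to 1004 FPKM) were abundant in all mutant and wild-type libraries, as the tissue label has it. Wild type 3 stood apart from the rest, with a median correlation of 0.938 with the other libraries against 0.974 to 0.983 for the other 5. It held 17157 FPKM of summed exocrine pancreas markers, against 259 to 2488 FPKM in the mutants and 1040 and 1290 FPKM in wild type 1 and 2. Intestine markers summed to 56.8 FPKM in mutant 2 and 339 FPKM in wild type 3, but to 2.67 to 4.51 FPKM in the other 4 libraries.

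No gene of the machinery passed the threshold over all genes. limma called 0 of the 26 at a false discovery rate (Benjamini-Hochberg adjusted p) below 0.05, where 0.0592% of the 15203 tested genes were called (0.0329% higher and 0.0263% lower in the mutant). At an unadjusted p below 0.05 it listed 4 of the 26, against 7.13% of all tested genes: orla-uaa, psmb8 and ciita were lower in the mutant (3.82% of all tested genes were lower at that p) and Orla-UHA was higher (3.32% were higher). limma-voom, run on the read counts recovered from the FPKM, also called 0 of the 26 and had 4 at an unadjusted p below 0.05. That fit called 0 of all 15203 tested genes too, and 1050 of them had an unadjusted p below 0.05. The groups did not overlap in 5 genes with the mutant lower (19.2% of the 26, against 6.45% of all tested genes) and in 2 with the mutant higher (7.69%, against 7.55%). The log2 difference, mutant minus wild type on the log2(FPKM + 1) scale, was below 0 in 19 of the 26 (73.1%, against 48.7% of all tested genes), with a median of -0.33 against 0.01. Orla-DCA, 1 of the 5 lower genes without overlap, and ENSORLG00000012822 reached the level for testing only through wild type. Orla-DFB reached it only through the mutant. A log2 difference of -1 or lower was found in 5 of the 26 (2.05% of all tested genes) and one of 1 or higher in 1 (0.677%). Wild type 3 was the highest of the 6 libraries in 16 of the 26 genes, against 27.6% of all tested genes, and mutant 3 was the lowest in 15, against 18.8%. Without wild type 3 the median was -0.16. Without wild type 3 and mutant 2, the libraries with intestine transcripts, it was -0.18.

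**Figure D1:**
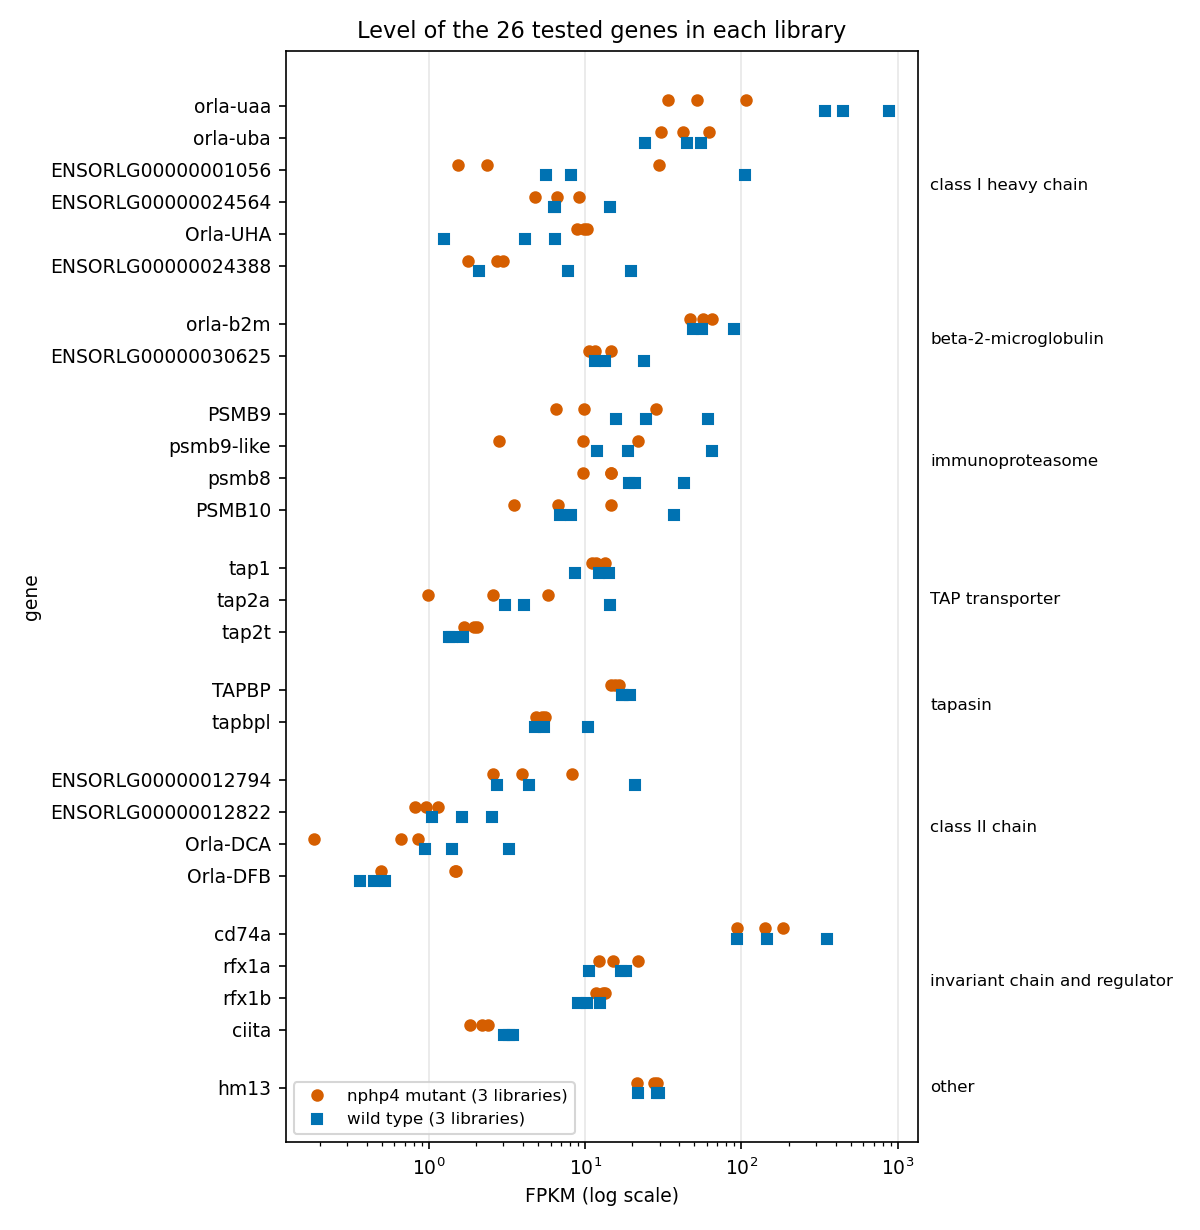
FPKM (log axis) of the 26 tested genes, grouped by role, in the 3 mutant libraries (circles, upper row of each gene) and the 3 wild-type libraries (squares, lower row). orla-uaa is at 34.1 to 106 FPKM in mutant and 342 to 879.8 FPKM in wild type, whereas most other genes overlap between the groups.

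**Figure D2:**
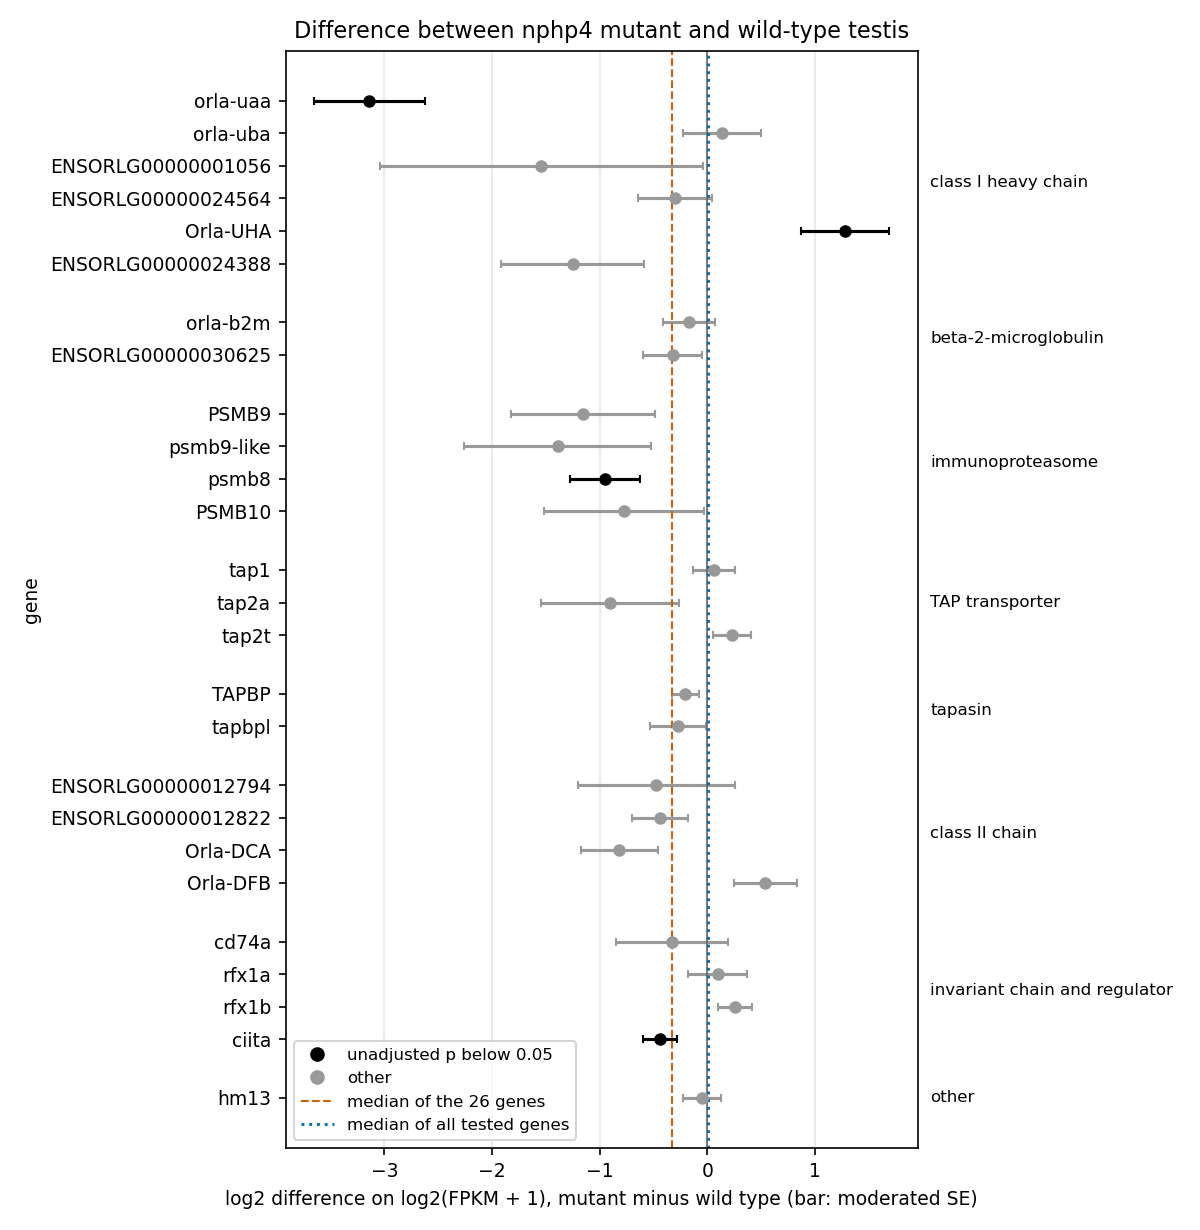
Log2 difference (mutant minus wild type, log2(FPKM + 1) scale) with its moderated standard error for the same genes. Black points have an unadjusted p below 0.05, and the dashed and dotted lines mark the medians of the 26 genes (-0.33) and of all tested genes (0.01).

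The class I heavy chain gene orla-uaa showed the largest gap between the groups of all 26 genes. orla-uaa (ENSORLG00000006772, chromosome 11, 15901412 to 15917405, minus strand, coordinates of the deposited table) encodes a class I heavy chain of the central MHC cluster. It was at 51.7, 106 and 34.1 FPKM in mutant 1, 2 and 3, against 342, 447 and 879.8 FPKM in wild type 1, 2 and 3. The highest mutant library was thus far below the lowest wild-type library. These values rested on 1330, 2610 and 1002 reads in the mutants and on 10229, 12277 and 21662 reads in the wild types. Mean levels were 64.0 ± 37.6 FPKM in the mutant and 556 ± 285 FPKM in wild type (SD, n = 3 each), which is 8.70-fold lower in the mutant. The log2 difference was -3.14 (SE 0.51), and 9 of the 15203 tested genes had a lower one. Its unadjusted p in limma was 0.000841, at rank 64 of all tested genes, and its adjusted p was 0.195, so it did not pass. By a 2-sided exact permutation test p was 0.1, which is as low as 3 libraries in each group can reach. By mean level orla-uaa ranked 1387 of 24365 genes in the mutant and 155 in wild type. Class I genes are highly variable, and whether orla-uaa reads of both groups fit the reference gene equally well was not tested.

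With wild type 3 left out, the log2 difference of orla-uaa was -2.75 (adjusted p = 0.209, limma), and over the removal of each of the 6 libraries in turn it ran from -3.58 to -2.75. With wild type 3 and mutant 2 both left out, an alternative added after the values were seen, it was -3.19 and passed the threshold (adjusted p = 0.0420, limma, 2 libraries in each group). It was the only one called of the 25 genes of antigen presentation then tested, where 10 of all 14632 tested genes were called. Over all alternatives its adjusted p ran from 0.0420 to 0.665.

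Its neighbour orla-uba (ENSORLG00000006798, chromosome 11, 15921379 to 15992811, minus strand), the other class I heavy chain gene of the central cluster, overlapped between the groups. It was at 42.4, 62.1 and 30.5 FPKM in mutant 1, 2 and 3, against 24.2, 44.5 and 55.3 FPKM in wild type 1, 2 and 3. The means were 45.0 ± 16.0 and 41.3 ± 15.8 FPKM (SD, n = 3 each), with a log2 difference of 0.14 (SE 0.36, adjusted p = 0.947, limma). The level of orla-uaa over that of orla-uba in the same library was 1.22, 1.71 and 1.117 in the mutants and 14.1, 10.1 and 15.9 in the wild types. In wild-type testis orla-uaa had the highest level of the class I heavy chain genes, and in mutant testis it was above orla-uba in every library by a much smaller ratio. These ratios and the shares below hold only reads assigned to the reference genes, and how well the reads of each group fit them was not tested. Summed over both genes, which may exchange reads if their copies are alike, the level was 94.1, 168 and 64.6 FPKM in the mutants and 366, 492 and 935 FPKM in the wild types, again without overlap. orla-uaa made up 41.5% to 48.0% of the summed FPKM of the 9 class I heavy chains in the mutants and 81.7% to 87.3% in the wild types. The other 8 heavy chains summed to 65.5, 115 and 48.0 FPKM in the mutants and to 51.9, 65.2 and 197 FPKM in the wild types, with overlap.

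Orla-UHA, a class I heavy chain gene away from the cluster (ENSORLG00000017153, chromosome 8, 24730973 to 24743269, plus strand), stood the other way round. Its level was 9.86, 10.2 and 8.90 FPKM in mutant 1, 2 and 3, against 4.14, 6.37 and 1.25 FPKM in wild type 1, 2 and 3. All mutants were above all wild types, and the mutant libraries were close to one another. The means were 9.67 ± 0.687 and 3.92 ± 2.57 FPKM (SD, n = 3 each), a 2.47-fold higher level in the mutant. The log2 difference was 1.28 (SE 0.41, adjusted p = 0.549, limma), with an unadjusted p of 0.0180. The value without wild type 3, the lowest library, was 0.79 (adjusted p = 0.309, limma).

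The remaining class I genes of chromosome 11 lie in a second group, away from the cluster, and all overlapped between the groups. ENSORLG00000001056 (2957669 to 2976350), described as a class I F10 alpha chain, was at 2.35, 29.9 and 1.54 FPKM in mutant 1, 2 and 3, against 8.17, 5.61 and 106 FPKM in wild type 1, 2 and 3. The libraries at the top, mutant 2 and wild type 3, were those with intestine transcripts: anpepb, an aminopeptidase of the intestinal brush border, was at 26.1 and 128 FPKM there and at 0.347 to 0.543 FPKM in the other 4. The part of intestine RNA in the level of ENSORLG00000001056 was not tested. The log2 difference was -1.54 (SE 1.497, adjusted p = 0.867, limma). It was -0.28 without wild type 3, -2.68 without mutant 2 and -1.42 without both (adjusted p = 0.196 in the last, limma). ENSORLG00000024388 (2942690 to 2956261), described as a Q10 alpha chain-like gene, was at 2.96, 2.75 and 1.79 FPKM in the mutants and at 7.79, 2.08 and 19.6 FPKM in the wild types. Wild type 1 and 3 were above all mutants and wild type 2 was among them (log2 difference -1.25, SE 0.66, adjusted p = 0.787, limma). The value was -0.59 without wild type 3 and -1.96 without wild type 2. ENSORLG00000024564 (3054119 to 3062912), described as an L-D alpha chain, had means of 6.86 ± 2.199 FPKM in the mutant and 9.05 ± 4.66 FPKM in wild type (SD, n = 3 each), with overlap. ENSORLG00000001044 on chromosome 11 and ENSORLG00000012414 and ENSORLG00000029335 on chromosome 22 were not tested. ENSORLG00000012414 had the highest group mean of these, at 0.579 FPKM in the mutant, against 0.222 FPKM in wild type. ENSORLG00000029335 had 4 reads, all in wild type 1.

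The light chain overlapped between the groups. ENSORLG00000030625 (chromosome 23, 11273276 to 11280060), a match to carp beta-2-microglobulin, was at 11.6, 14.7 and 10.5 FPKM in mutant 1, 2 and 3, against 11.5, 13.4 and 23.7 FPKM in wild type 1, 2 and 3. Wild type 3 was the highest library (log2 difference -0.32, SE 0.27, adjusted p = 0.856, limma), and without wild type 3 the value was -0.03. The gene named orla-b2m, on the same chromosome, had means of 55.9 ± 8.84 and 64.7 ± 21.5 FPKM (SD, n = 3 each, log2 difference -0.17, adjusted p = 0.903, limma). Its gene model of 9653 bases also matches caprin-2, an unrelated RNA-binding protein, so its level need not be that of the light chain alone. orla-uaa over ENSORLG00000030625 within a library was 4.47, 7.23 and 3.23 in the mutants and 29.6, 33.4 and 37.2 in the wild types.

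The 4 immunoproteasome subunits all had log2 differences below 0, and psmb8 alone separated the groups. psmb8, which replaces the chymotrypsin-like subunit of the standard proteasome (ENSORLG00000006783, chromosome 11, 15859578 to 15928281), was at 14.7, 14.7 and 9.71 FPKM in mutant 1, 2 and 3, against 19.0, 20.8 and 42.7 FPKM in wild type 1, 2 and 3. Every mutant was below every wild type, with means of 13.0 ± 2.87 and 27.5 ± 13.2 FPKM (SD, n = 3 each). The log2 difference was -0.95 (SE 0.32, adjusted p = 0.572, limma), with an unadjusted p of 0.0221, and -0.60 without wild type 3. The span of psmb8 holds orla-uaa whole and 6903 bases of orla-uba on the opposite strand. Since counting by strand is not given in the sources used here, reads where their exons meet cannot be told apart.

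PSMB9, which replaces the caspase-like subunit in mammals, was at 9.89, 28.2 and 6.49 FPKM in mutant 1, 2 and 3, against 15.7, 24.6 and 60.8 FPKM in wild type 1, 2 and 3. Mutant 2 lay among the wild types, whereas mutant 1 and 3 were below them. The log2 difference was -1.16 (SE 0.67, adjusted p = 0.810, limma). psmb9-like, a fish paralog, was at 9.67, 21.8 and 2.82 FPKM in the mutants and at 11.9, 18.7 and 64.5 FPKM in the wild types (log2 difference -1.39, SE 0.87, adjusted p = 0.818, limma). PSMB10, whose mammalian product replaces the trypsin-like subunit, was at 6.68, 14.7 and 3.51 FPKM in the mutants and at 8.09, 6.95 and 36.9 FPKM in the wild types (log2 difference -0.78, SE 0.74, adjusted p = 0.865, limma). In all 3 genes wild type 3 was the highest and mutant 3 the lowest library. Without wild type 3 the log2 differences of PSMB9, psmb9-like and PSMB10 were -0.63, -0.71 and -0.06. Without mutant 3 they were -0.74, -0.71 and -0.35, and without mutant 2, the highest mutant, they were -1.72, -2.002 and -1.25. Without both wild type 3 and mutant 2 they were -1.19, -1.32 and -0.53 (adjusted p = 0.302, 0.543 and 0.707, limma). Beside them, 2 standard counterparts (psmb5 and psmb7), 3 proteasome activator genes (psme1, psme3 and psme4) and the assembly factor pomp were tested. limma called 0 of these 6 genes (0.0592% of all tested genes were called), and none had an unadjusted p below 0.05 (7.13% of all tested genes did). psmb5 was at 254 ± 18.1 FPKM in the mutant and 215 ± 17.2 FPKM in wild type (SD, n = 3 each), higher in every mutant library (log2 difference 0.24, adjusted p = 0.757, limma). The activator gene psme1 was at 134 ± 2.45 and 147 ± 31.4 FPKM (SD, n = 3 each, log2 difference -0.11, adjusted p = 0.900, limma).

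Of the 3 TAP genes none had an unadjusted p below 0.05 (7.13% of all tested genes did). tap2a, which lies next to PSMB9 on chromosome 11 and encodes a TAP subunit, was at 2.57, 5.82 and 0.987 FPKM in mutant 1, 2 and 3, against 3.09, 4.03 and 14.4 FPKM in wild type 1, 2 and 3. Its highest and lowest libraries were those of PSMB9 (log2 difference -0.90, SE 0.64, adjusted p = 0.841, limma). The value was -0.32 without wild type 3, -0.47 without mutant 3, -1.36 without mutant 2 and -0.77 without both wild type 3 and mutant 2. The ratio of tap2a to PSMB9 was 0.260, 0.206 and 0.152 in the mutants and at 0.197, 0.164 and 0.237 in the wild types, although each gene varied many-fold between libraries. tap1, the partner subunit, lies on chromosome 16 and was at 12.03 ± 1.23 FPKM in the mutant and 11.7 ± 2.79 FPKM in wild type (SD, n = 3 each, log2 difference 0.06, adjusted p = 0.956, limma). tap2t, a TAP paralog of bony fish on chromosome 19, was at 2.03, 1.94 and 1.68 FPKM in the mutants and at 1.41, 1.34 and 1.64 FPKM in the wild types. The mutants were all higher, the lowest by a narrow margin (log2 difference 0.23, SE 0.17, adjusted p = 0.841, limma).

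Tapasin, which bridges TAP and empty class I molecules, is named TAPBP in the table and lies beside orla-uba. It was at 16.4, 14.7 and 15.5 FPKM in mutant 1, 2 and 3, against 17.3, 19.5 and 17.4 FPKM in wild type 1, 2 and 3. Every mutant was lower, by a small amount, with means of 15.5 ± 0.851 and 18.1 ± 1.22 FPKM (SD, n = 3 each, log2 difference -0.21, SE 0.12, adjusted p = 0.810, limma). tapbpl, a tapasin-like gene that edits class I peptides in mammals, overlapped between the groups (log2 difference -0.28, adjusted p = 0.864, limma). Among 17 genes matching the list of loading and folding partners, such as calreticulin, calnexin and pdia3, 11 were tested. limma called 0 of these 11 (0.0592% of all tested genes), and 1 had an unadjusted p below 0.05 (7.13% of all tested genes). That gene, the calreticulin relative calr3a, was at 117 ± 5.18 FPKM in the mutant and 96.0 ± 9.13 FPKM in wild type (SD, n = 3 each, log2 difference 0.29, adjusted p = 0.683, limma). The median log2 difference of the 11 was 0.06.

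**Figure D3:**
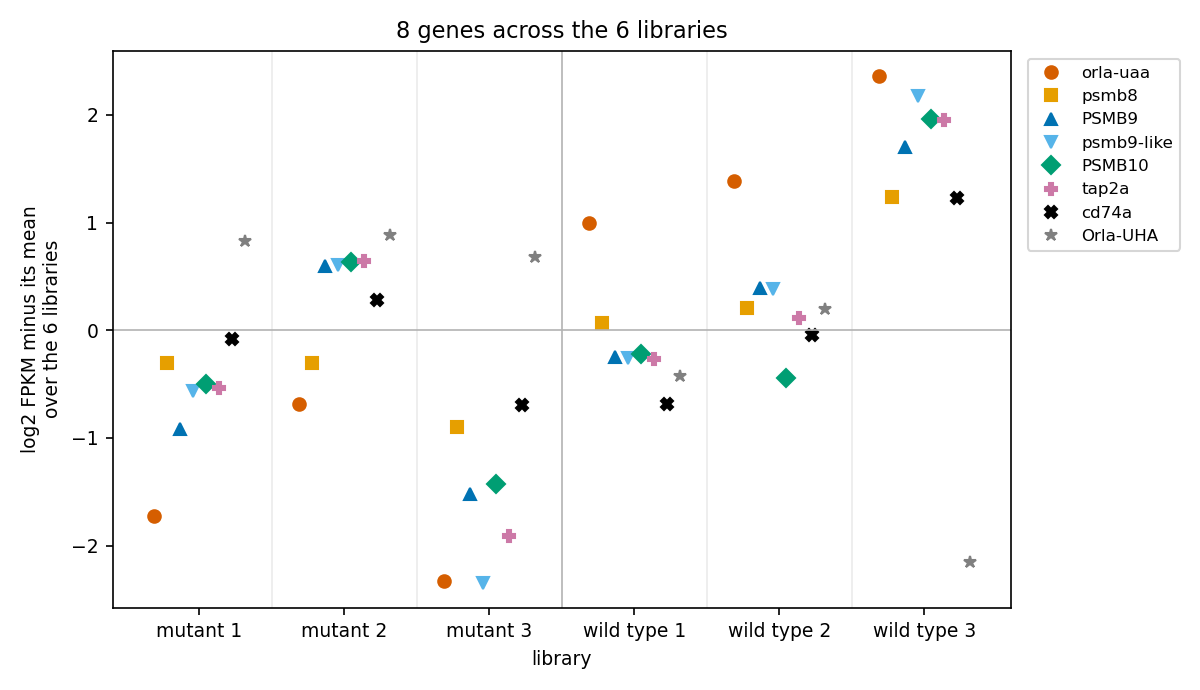
Log2 FPKM minus its mean over the 6 libraries for 8 genes, by library. PSMB9, psmb9-like, PSMB10 and tap2a lie near one another in most libraries and are lowest in mutant 3 and highest in wild type 3, with mutant 2 above mutant 1, whereas orla-uaa is low in all 3 mutants and Orla-UHA is high in all 3.

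Class II transcripts were scarce in these testes. The 9 chains summed to 8.85, 13.4 and 4.86 FPKM in mutant 1, 2 and 3, against 7.23, 8.82 and 30.6 FPKM in wild type 1, 2 and 3, on 114 to 294 reads in the mutants and 182 to 623 in the wild types. The most abundant was ENSORLG00000012794 on chromosome 5, described as a DP alpha-1 chain, at 3.95, 8.21 and 2.57 FPKM in the mutants and 2.72, 4.35 and 20.9 FPKM in the wild types. Mutant 2 and wild type 3 were again the highest libraries of their groups, and the groups overlapped (log2 difference -0.47, SE 0.73, adjusted p = 0.906, limma). The log2 difference without wild type 3 was 0.29. Orla-DCA, an alpha chain on chromosome 3, was at 0.845, 0.663 and 0.185 FPKM in the mutants and at 1.41, 0.941 and 3.26 FPKM in the wild types, on 4 to 16 and 19 to 59 reads. All mutants were lower (log2 difference -0.82, SE 0.36, adjusted p = 0.721, limma), and the value was -0.49 without wild type 3. Orla-DCA reached the level for testing only through its wild-type mean, 1.87 FPKM against 0.565 FPKM in the mutant. Its difference is therefore given as a description. It lies within ENSORLG00000000025, a class II beta chain match on the same strand. ENSORLG00000012822 on chromosome 5, a beta chain match, was at 0.967 ± 0.161 and 1.73 ± 0.751 FPKM (SD, n = 3 each), with overlap (log2 difference -0.44, and -0.24 without wild type 3). It too reached the level for testing only through its wild-type mean, so these differences are descriptions. Orla-DFB on chromosome 18 was at 1.47, 1.49 and 0.490 FPKM in the mutants and at 0.445, 0.525 and 0.360 FPKM in the wild types, where mutant 1 and 2 stood above the rest. It reached the level for testing only through its mutant mean, 1.15 FPKM against 0.443 FPKM in wild type, and did not reach it when mutant 1 or mutant 2 was left out, so its log2 difference of 0.54 is given as a description. The other 5 class II chains, Orla-DFA, Orla-DEA, Orla-DEB, ENSORLG00000012826 and ENSORLG00000000025, were below the level for testing.

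cd74a, the invariant chain gene, was far more abundant than the class II chains. It was at 142, 183 and 93.2 FPKM in mutant 1, 2 and 3, against 93.8, 146 and 353 FPKM in wild type 1, 2 and 3. The groups overlapped (log2 difference -0.33, SE 0.52, adjusted p = 0.907, limma), and without wild type 3 the value was 0.20. Its gene model of 5172 bases also matches a retroviral Gag-Pol protein and overlaps a gene with a reverse transcriptase match on the other strand, so the level need not be that of the invariant chain alone.

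The gene named ciita was the regulator with a gap between the groups. CIITA switches on class II genes in mammals, and the protein match of this gene in the table is human NLRC5, its relative that acts on class I genes. The gene was at 2.19, 2.38 and 1.84 FPKM in mutant 1, 2 and 3, against 3.26, 3.02 and 3.46 FPKM in wild type 1, 2 and 3. Every mutant was lower, with means of 2.13 ± 0.274 and 3.25 ± 0.218 FPKM (SD, n = 3 each). The log2 difference was -0.44 (SE 0.15, adjusted p = 0.588, limma), with an unadjusted p of 0.0244, and -0.41 without wild type 3. rfx1a and rfx1b, factors that bind the X box of class II promoters in mammals, had log2 differences of 0.10 and 0.26 with overlapping groups (adjusted p = 0.950 and 0.810, limma). hm13, a signal peptide peptidase known as a minor histocompatibility antigen, was at 25.8 ± 3.95 FPKM in the mutant and 26.9 ± 4.31 FPKM in wild type (SD, n = 3 each).

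Other regulators of MHC genes and the endosomal enzymes were counted beside these. Of 12 regulators (among them rfx5, rfxank, irf1b, stat1a and nfyc), limma called 0 (0.0592% of all tested genes were called). None had an unadjusted p below 0.05 (7.13% of all tested genes did), and the median log2 difference was 0.05. irf1b, an interferon-induced factor that acts on class I promoters, was at 18.9, 23.2 and 9.78 FPKM in mutant 1, 2 and 3, against 15.8, 19.6 and 51.8 FPKM in wild type 1, 2 and 3, with overlap. Of 11 tested genes of class II endosomal processing, limma called 0, against the same 0.0592%. A log2 difference below 0 was found in 10 (90.9%, against 48.7% of all tested genes), with a median of -0.38. Wild type 3 was the highest library in 7 of the 11, against 27.6% of all tested genes. The median of this list without wild type 3 was not computed. Of the 11, 1 had an unadjusted p below 0.05 (7.13% of all tested genes did). It was 1 of 2 genes named ifi30, the thiol reductase that unfolds antigens in endosomes (ENSORLG00000008333), at 21.9, 23.0 and 22.5 FPKM in the mutants and 30.0, 33.0 and 31.5 FPKM in the wild types. All mutants were lower (log2 difference -0.47, SE 0.11, unadjusted p = 0.00453, adjusted p = 0.362, limma). The other ifi30 gene (ENSORLG00000005487) was at 38.5, 38.7 and 34.9 FPKM in the mutants and 44.1, 39.3 and 67.6 FPKM in the wild types. Its mutants were also all lower (log2 difference -0.38, SE 0.21, adjusted p = 0.788, limma). ctsl.1, a cathepsin L gene, was at 472 FPKM in mutant 2 and 952 FPKM in wild type 3. In the other 4 libraries it was at 0.246 to 0.875 FPKM, and the summed intestine markers were low there too. Also highest in mutant 2 and wild type 3 were ctsbb (77.7 and 213 FPKM), lgmn (146 and 203 FPKM) and ctsh (27.4 and 71.7 FPKM). In the other 4 libraries ctsbb was at 0 to 0.0755, lgmn at 29.9 to 39.2 and ctsh at 4.57 to 8.09 FPKM.

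T and B cell markers were at low levels in all libraries. The most abundant gene of the macrophage and dendritic cell list, coro1a, was at 15.8, 17.6 and 12.4 FPKM in mutant 1, 2 and 3. In wild type 1, 2 and 3 coro1a was at 11.1, 19.9 and 43.3 FPKM, with overlap. The T cell list (4 genes matched to 10 symbols, 3 tested) summed to 2.64 to 4.90 FPKM in the mutants and 3.27 to 8.75 FPKM in the wild types. B cell genes (6 matched to 8 symbols) summed to 10.8 to 16.1 and 10.3 to 19.6 FPKM, and macrophage and dendritic cell genes (9 matched to 20 symbols) to 30.1 to 40.2 and 25.2 to 97.9 FPKM. The last list also holds the leukocyte gene ptprc, so its sum is not that of macrophages and dendritic cells alone. None of the matched genes of the T cell, B cell and macrophage lists was at 0 in every library. limma called 0 of those tested (0.0592% of all tested genes were called), and none had an unadjusted p below 0.05 (7.13% of all tested genes did). Of the 9 macrophage and dendritic cell genes, 6 had a log2 difference below 0 (48.7% of all tested genes did), with a median of -0.19. The other 3, csf1ra, zbtb46 and mafba, had one above 0 (0.51, 0.25 and 0.02). Wild type 3 was the highest library in 7 of the 9, against 27.6% of all tested genes. csf1ra went the other way, with every mutant higher, at 1.98 ± 0.269 against 1.13 ± 0.512 FPKM (SD, n = 3 each, log2 difference 0.51, adjusted p = 0.757, limma). ptprc, the pan-leukocyte gene CD45, was at 5.98, 5.70 and 4.37 FPKM in mutant 1, 2 and 3, against 3.94, 6.58 and 13.8 FPKM in wild type 1, 2 and 3, so wild type 3 was high in this gene too.

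Set against ptprc in the same library, orla-uaa and psmb8 were lower in all mutants, orla-uba and Orla-UHA were higher in all mutants, and the other 5 genes compared overlapped between the groups. orla-uaa over ptprc was 8.65, 18.6 and 7.80 in the mutants and 86.9, 68.0 and 63.9 in the wild types, without overlap. psmb8 over ptprc was 2.45, 2.58 and 2.22 in the mutants and 4.83, 3.17 and 3.10 in the wild types, also without overlap. PSMB9 over ptprc was 1.65, 4.95 and 1.49 in the mutants and 3.98, 3.73 and 4.41 in the wild types, with overlap. cd74a over ptprc was 23.8, 32.2 and 21.3 in the mutants and 23.8, 22.2 and 25.6 in the wild types, with overlap. orla-uba over ptprc was 7.08, 10.9 and 6.98 in the mutants and 6.16, 6.76 and 4.01 in the wild types, and Orla-UHA over ptprc was 1.65, 1.797 and 2.04 in the mutants and 1.05, 0.968 and 0.0905 in the wild types. ciita, which by level was lower in every mutant, overlapped as a ratio to ptprc, at 0.366, 0.418 and 0.420 in the mutants and 0.830, 0.459 and 0.251 in the wild types. ENSORLG00000030625 and ENSORLG00000012794 over ptprc also overlapped. These ratios were chosen after the values were seen and are given as descriptions, with no test. The share of all tested genes that separate as a ratio to ptprc was not computed. Each ratio also moves with ptprc, which was highest in wild type 3, and orla-uba by level overlapped between the groups.

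**Figure D4:**
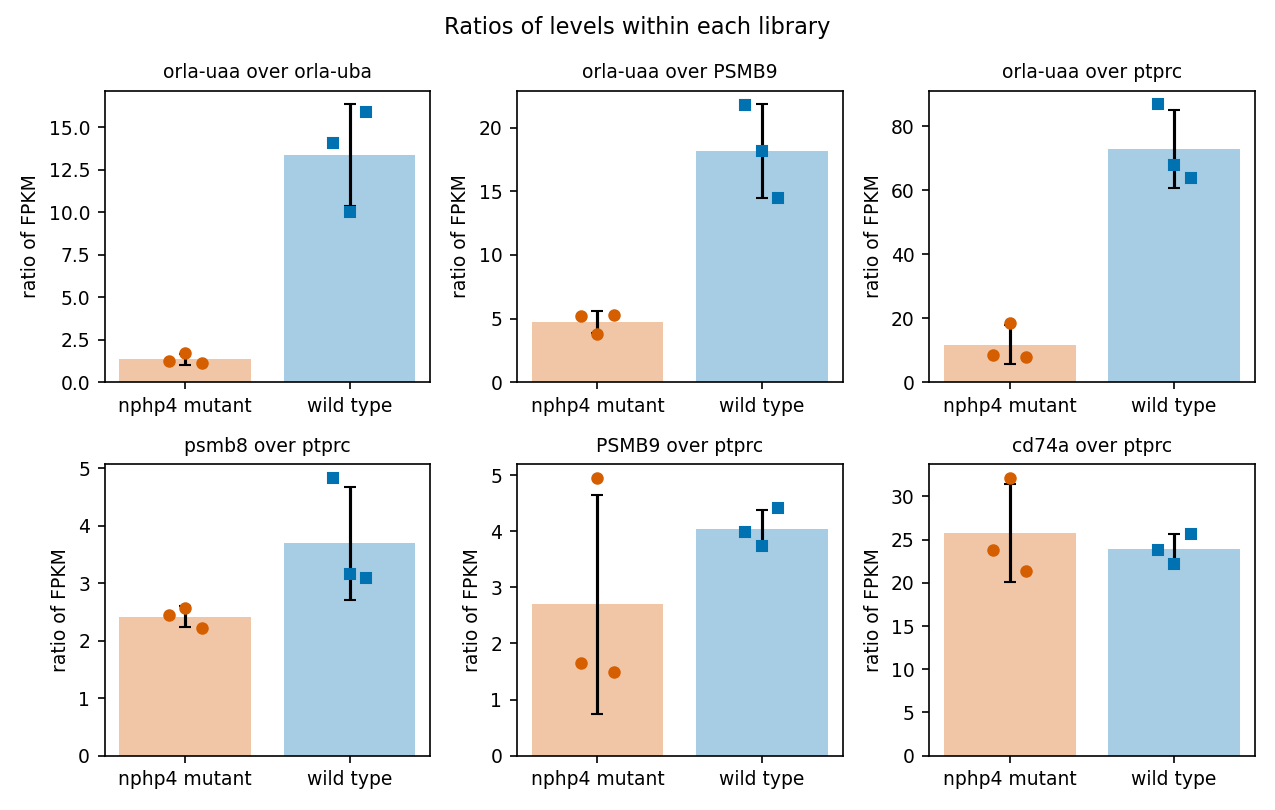
Ratio of the FPKM of 2 genes within each library, for mutant (left) and wild type (right) in each panel, with points for libraries, bars for means and error bars for SD (n = 3 each). The ratios of orla-uaa to orla-uba, PSMB9 and ptprc do not overlap between the groups, whereas those of PSMB9 and cd74a to ptprc do.

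Within 500 kb on either side of orla-uaa lay 36 genes, of which 24 were tested and limma called 0 (0.0592% of all tested genes were called). The 7 tested neighbours that belong to the machinery had a median log2 difference of -0.90, from -1.39 to 0.14. Without wild type 3 the values were -0.32 in tap2a, -0.63 in PSMB9, -0.71 in psmb9-like and -0.06 in PSMB10. For psmb8, orla-uba and TAPBP they were then -0.60, 0.38 and -0.23. The 17 other neighbours had a median of 0.08, from -0.82 to 0.49. Of these 17, 3 had an unadjusted p below 0.05, against 7.13% of all tested genes. The same 3 were those without overlap, 2 with the mutant lower (6.45% of all tested genes) and 1 with the mutant higher (7.55%). fam131ba was lower in the mutant, at 0.674 ± 0.411 FPKM against 1.90 ± 0.228 FPKM in wild type (SD, n = 3 each, log2 difference -0.82, adjusted p = 0.486, limma). It is counted among the 3, but it reached the level for testing only through its wild-type mean, so its difference is a description. ENSORLG00000006423 was also lower, at 14.3 ± 2.91 against 20.7 ± 4.27 FPKM (SD, n = 3 each, log2 difference -0.50, adjusted p = 0.692, limma). ENSORLG00000006476 was higher, at 7.80 ± 1.202 against 5.23 ± 0.453 FPKM (SD, n = 3 each, log2 difference 0.49, adjusted p = 0.532, limma). brd2a, a chromatin reader gene, was at 21.98 ± 2.17 FPKM in the mutant and 22.1 ± 2.21 FPKM in wild type (SD, n = 3 each). daxx, a chromatin gene directly after TAPBP, was at 28.0 ± 6.51 and 21.5 ± 5.48 FPKM (SD, n = 3 each, log2 difference 0.38, adjusted p = 0.817, limma).

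**Figure D5:**
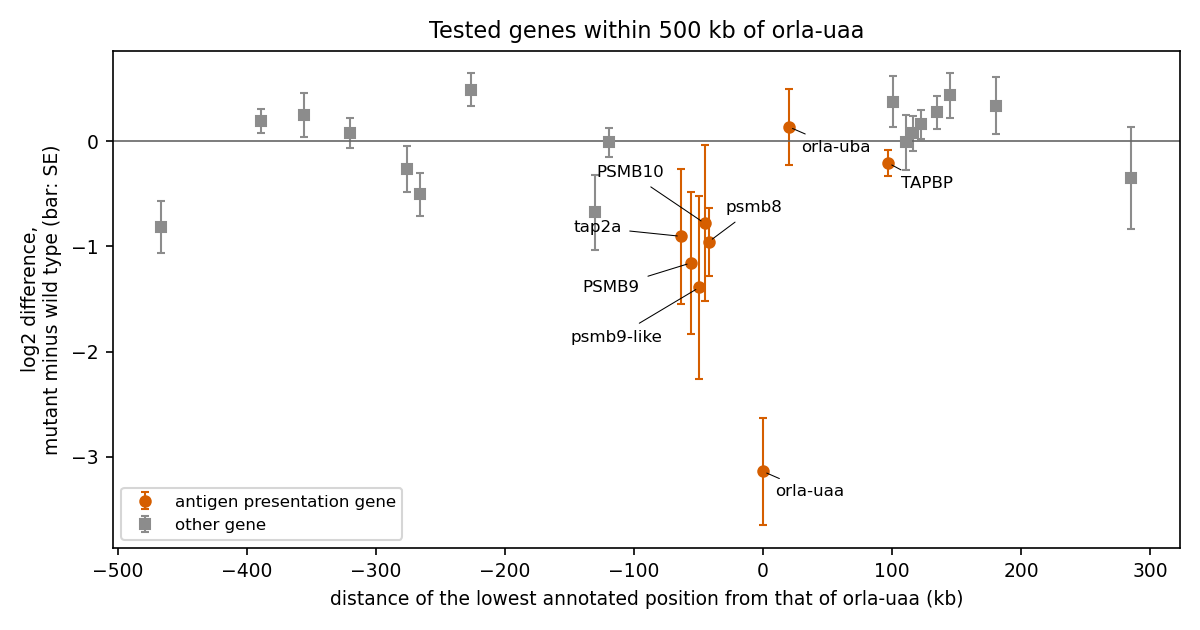
Log2 difference (mutant minus wild type) with its standard error against the distance from orla-uaa in kb, for tested genes within 500 kb. Genes of antigen presentation are circles and other genes squares, and orla-uaa at -3.14 lies below all of its neighbours.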

How the data were processed

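The authors deposited 1 FPKM value per gene and library, with gene lengths, for 6 testis libraries. Tools listed in the submitters' processing notes, with no role stated, are DESeq2 1.20.0, featureCounts 1.5.0-p3, HISAT2 2.0.5, CASAVA 1.8 and fastp. The aligner settings, genome build, strand setting and the handling of reads that fit several genes are not given in the sources used here. FPKM times length gave whole multiples of 1 read in 100% of values (tolerance 0.01 read), and the library totals inside the FPKM are proportional to median-ratio size factors. Of 8821 genes named by an identifier alone, 682 took a symbol from RefSeq (ASM223467v1).

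Genes averaging 1 FPKM or more in mutant or wild type entered limma 3.58.1 (R 4.3.3) as log2(FPKM + 1), using a mean-variance trend and robust moderation, with p adjusted over all 15203. The fold in the text is a ratio of mean FPKM. SE is the moderated standard error. The script was tested on simulated reads. The members and lists were chosen with earlier results of these data known. The genes named were, within each role, the 4 most abundant tested genes, those with an unadjusted p below 0.05 and those with an absolute log2 difference of at least 1. Genes named from the other lists were among the 2 most abundant or had an unadjusted p below 0.05. Other genes (among them psmb5, psme1, irf1b, brd2a, daxx) were chosen after their values were seen. With 3 libraries in each group, p-values measure the spread between these pools.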

Additional observations from a re-analysis of the deposited data

How the results depend on the processing

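limma called 0 of the genes of antigen presentation under 14 alternatives and 1, orla-uaa, without wild type 3 and mutant 2, an alternative added after the data were seen. Their median log2 difference stayed between -0.50 and -0.16 in all 15. Over all tested genes 9 were called, against 14 with library totals, 0 with limma-voom (1050 at an unadjusted p below 0.05), 41 with quality weights, and 2 to 18 on leaving out 1 library. That count was 18 when wild type 3 was dropped, 4 when wild type 1 was, 3 when mutant 1 was, and 2 when either mutant 2 or mutant 3 was. The cause was not tested. Replicate numbers did not pair the libraries (correlations of deviations 0.31, -0.56 and -0.42), and with the number as a replicate block 6 genes were called, 0 of them of antigen presentation.

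Of 26 named genes, 17 kept the direction of their log2 difference in each alternative that tested them, which was 11 of 15 for Orla-DFB. With quality weights it turned to 0.080 in orla-b2m, 0.22 in ENSORLG00000012794, 0.25 in cd74a, -0.17 in rfx1a and -0.13 in tap1. Without wild type 3 and mutant 2 it turned to -0.097 in rfx1a and -0.067 in tap1. On leaving out 1 library it ran from -0.34 to 0.083 in orla-b2m, -0.20 to 0.38 in orla-uba, -0.50 to 0.057 in ENSORLG00000024564, -0.99 to 0.29 in ENSORLG00000012794, -0.75 to 0.20 in cd74a, -0.13 to 0.27 in rfx1a, -0.19 to 0.074 in hm13, -0.12 to 0.20 in tap1 and -0.46 to 0.023 in tapbpl. Genes with few reads, such as the class II chains, had little depth to show small differences.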

Other observations

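The 7 genes that the letter case of the description left out carry class I-type names or domains, and all lie on chromosome 11. They mostly match MR1, a class I-like molecule that presents vitamin metabolites in mammals. Among them orla-uia1 took its symbol from RefSeq, whereas the search by symbol used the names of the deposited table. Only ENSORLG00000000970 (1840585 to 1851927), an MR1 match, reached the level for testing. It was at 3.10, 6.92 and 7.20 FPKM in mutant 1, 2 and 3, against 2.12, 5.61 and 0 FPKM in wild type 1, 2 and 3, so wild type 3, the library highest in most genes of antigen presentation, had no read of it (log2 difference 1.23, SE 0.70, adjusted p = 0.810, limma).

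Beside Orla-UHA lies ENSORLG00000023681 (chromosome 8, 24712876 to 24718969), whose product has a low-density lipoprotein receptor domain. It was at 8.002, 7.95 and 7.71 FPKM in mutant 1, 2 and 3, against 3.57, 5.51 and 2.01 FPKM in wild type 1, 2 and 3, with every mutant higher (log2 difference 0.99, SE 0.27, adjusted p = 0.437, limma). ENSORLG00000023681 was chosen after its values were seen. Over the 36 tested genes within 500 kb of Orla-UHA the median log2 difference was 0.01, and 6 had an unadjusted p below 0.05, against 7.13% of all tested genes. Of these, ENSORLG00000023681 was higher in the mutant, and lin7b, slc16a3, ENSORLG00000022669, rcn3 and aldh3b1 were lower. slc16a3 reached the level for testing only through its wild-type mean (2.40 FPKM, against 0.998 FPKM in the mutant), so its difference is a description. The groups did not overlap in 3 of the 36 with the mutant higher (7.55% of all tested genes) and in 4 with the mutant lower (6.45%).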
